A study of Mus musculus with 12 samples.

Results

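Of the 23185 genes with a single symbol on these arrays, 7 were examined: the 4 genes of the TSC22 domain family (Tsc22d1, Tsc22d2, Tsc22d3 and Tsc22d4), the pseudokinase genes Nrbp1 and Nrbp2, and the kinase gene Wnk1. The rule lists them by name and uses no measured value, and each had 1 probe set. The arrays are of gastrocnemius, a calf muscle, from 12 mice of the strain BKS.Cg-Dock7m +/+ Leprdb/J, which carries the diabetes mutation of the leptin receptor gene, at an age of 12 weeks. The labels do not say whether the animals were homozygous for it, and no group without the mutation was analysed here. All animals, controls included, had been given adenovirus carrying short hairpin RNA (shRNA), a hairpin that directs degradation of a matching transcript, and were killed 1 week later. In units of 1e9 plaque-forming units, control animals (18, 19 and 20) received 4 of control shRNA virus. LCN13 animals (21, 22 and 23) received 2 of LCN13 shRNA virus, against the secreted lipocalin LCN13, with 2 of control virus. TSC22D4 animals (25, 26 and 27) received 2 of TSC22D4 shRNA virus with 2 of control virus. TSC22D4+LCN13 animals (29, 30 and 32) received 2 of each target virus and no control virus. Between any 2 groups compared below, a target virus thus took the place of control virus. More target virus and less control virus cannot be told apart. Each group held 7 treated animals, of which 3 described as representative were put on arrays, 1 array an animal, and a selection of this kind can narrow the spread. The labels do not say which tissues the virus reached.

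TSC22 proteins are named after TGF-beta-stimulated clone 22. They share a conserved TSC box followed by a leucine zipper, through which they form homodimers and heterodimers, and several act in transcriptional regulation. Tsc22d3 encodes GILZ, the glucocorticoid-induced leucine zipper, and TSC22D4 has been studied as a regulator of lipid and glucose metabolism in liver. NRBP1 and NRBP2 have a kinase-like fold without catalytic activity and bind TSC22 proteins. WNK kinases respond to chloride and cell volume and act on cation-chloride cotransporters through the kinases SPAK and OSR1, and TSC22 and NRBP proteins have been linked to this pathway.

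Levels are log2 values from RMA, a method that corrects background, equalises the distributions of the arrays and summarises the probes of a set. A difference of 1 is a doubling. The tissue label fitted its markers: all 10 fast fibre genes had group means between 13.11 and 14.07, near the top of the scale at 14.09, whereas the 4 measured T cell genes lay between 4.97 and 5.26, near its bottom at 4.78. Markers of other tissues were not all low. All 5 measured adipocyte genes were above the array median in each group, with Fabp4 between 12.15 and 12.91. Of 5 measured hepatocyte genes 3 or 4 were, with Alb between 7.01 and 11.57. Scores of some other marker lists were not equal between the groups. The score of 10 fibroblast and tendon genes (mean deviation from the 12-array means, log2) ranged from -0.91 to -0.02 over control arrays and from -0.05 to 0.54 over TSC22D4+LCN13 arrays, that of 3 red cell genes from -0.69 to -0.10 and from 0.34 to 1.42, and that of 9 interferon-induced genes from 0.99 to 1.46 and from -0.66 to -0.43. In the same order, LCN13 arrays ranged from 0.08 to 0.35, from -0.65 to -0.52 and from -0.35 to -0.23, and TSC22D4 arrays from -0.30 to 0.31, from -0.14 to 0.49 and from -0.46 to -0.39. The score of 5 macrophage genes ranged from -0.26 to -0.06 over control arrays, from -0.28 to 0.07 over LCN13, from -0.10 to 0.03 over TSC22D4 and from 0.13 to 0.68 over TSC22D4+LCN13 arrays, which lay above all others. That of the 5 hepatocyte genes ranged from -0.59 to 0.27, from -0.01 to 1.08, from -0.52 to -0.25 and from -0.62 to 0.62 in the same order of groups. For TSC22D4+LCN13 against control, 2 of 5 macrophage and 2 of 3 red cell genes rose and 0 of 10 fibroblast and tendon genes passed in limma, with 9 of these 10 at an unadjusted p below 0.05. Over all genes 4.34% passed in this comparison and 20.4% had an unadjusted p below 0.05. All 10 fibroblast and tendon genes, all 5 macrophage genes and 7 or 8 of the 9 interferon genes were above the array median in each group, as was 1 of the 3 red cell genes in control and 3 in TSC22D4+LCN13 arrays. Their part in the values below was not tested. In bulk muscle, fewer cells of a type and less RNA per cell cannot be told apart.

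All 7 members lay above the array median of 5.48 on every array. Wnk1 lay between 11.79 and 12.05 and Nrbp1 between 11.10 and 11.35, among the brightest signals of an array (98.7th to 99.0th and 97.4th to 98.0th percentile). Tsc22d1 lay between 9.65 and 9.99 (91.9th to 93.6th percentile), Tsc22d3 between 9.36 and 10.08 (90.2nd to 94.0th) and Tsc22d2 between 8.06 and 8.37 (82.0th to 84.1st). Tsc22d4 lay between 6.43 and 7.01 (68.3rd to 74.2nd) and Nrbp2 between 6.28 and 6.88 (66.4th to 73.0th). Probe sets differ in how well they hybridise, so these positions are not an order of transcript amounts, and the relative abundance of the paralogues could not be read from these arrays. One probe set a gene also cannot separate isoforms, of which Tsc22d1, Tsc22d3 and Wnk1 have several.

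The members differed in how much they varied between animals of the same group. Wnk1, Nrbp1 and Tsc22d2 varied least among the members, with a within-group SD of 0.066, 0.064 and 0.082 on the log2 scale. These were at the 51.2nd, 49.8th and 60.4th percentile of all genes, whose median was 0.064. Tsc22d1 had 0.11, at the 73.0th percentile. Tsc22d3, Nrbp2 and Tsc22d4 varied most, with 0.22, 0.19 and 0.16, at the 96.0th, 94.2nd and 90.1st percentile of all genes. Small differences in these 3 genes were therefore harder to detect.

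**Figure D1:**
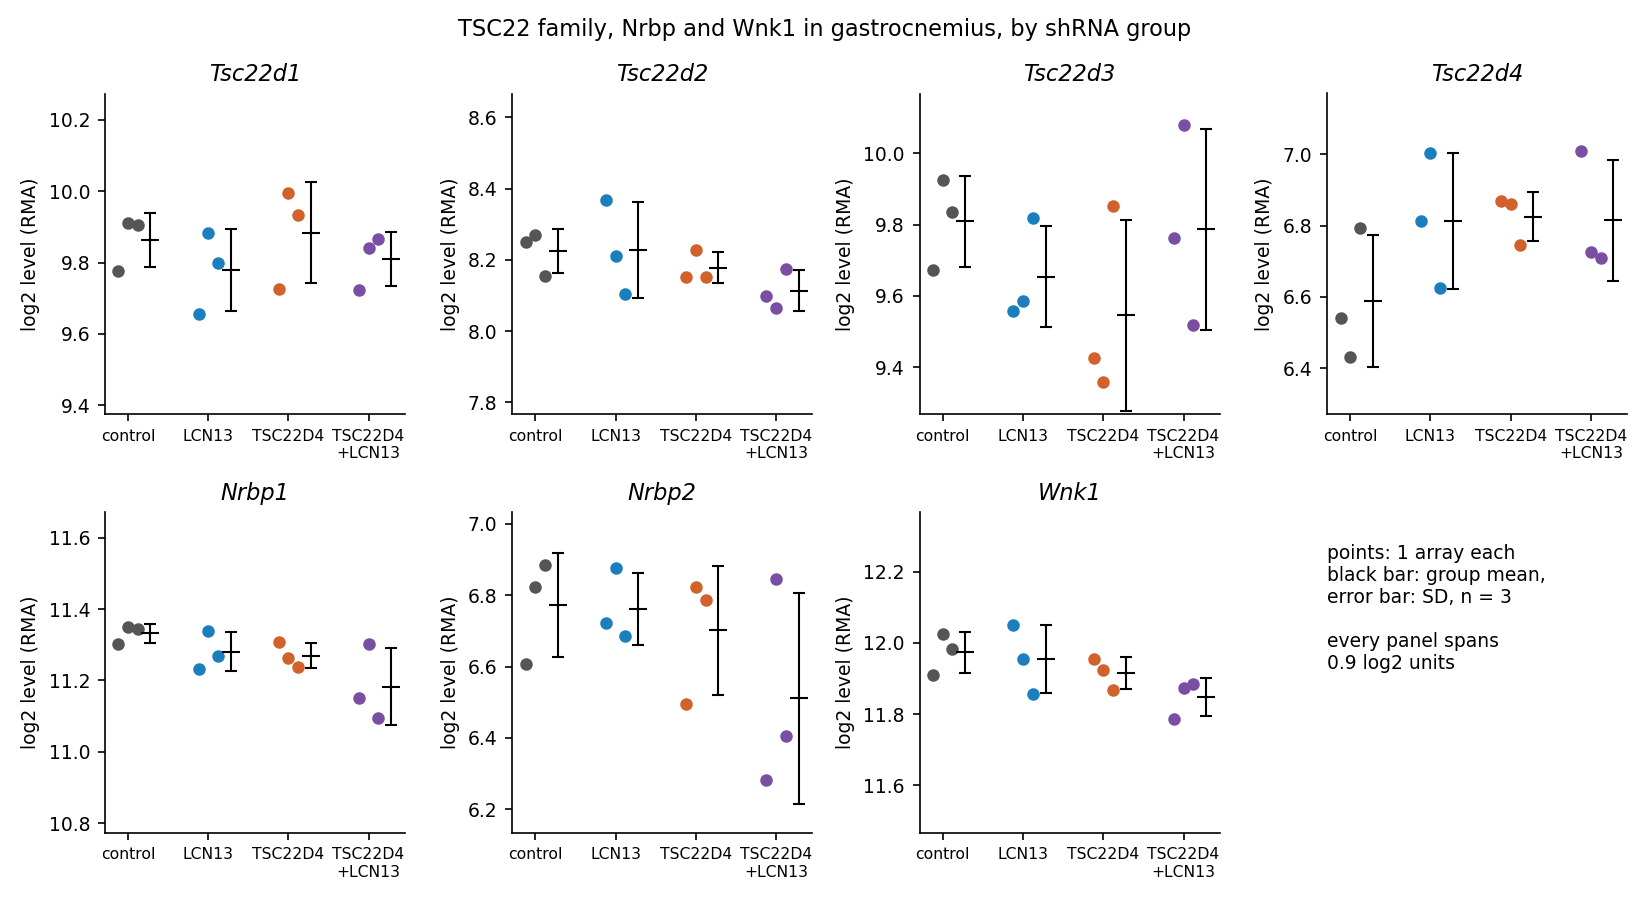
Log2 level (RMA, vertical axis) of each member on every array, by shRNA group. Each point is 1 array and each black bar the group mean with its SD (n = 3); in the pairs of groups compared, ranges overlap for every member except Wnk1, whose TSC22D4+LCN13 arrays lie below the control arrays.

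Tsc22d4, the family member that the TSC22D4 virus targets (Entrez gene 78829), was not lower in the arrays labelled with that virus. It measured 6.54, 6.43 and 6.79 in control animals 18, 19 and 20. It measured 6.87, 6.86 and 6.75 in TSC22D4 animals 25, 26 and 27. The control group had both the lowest array and the lowest mean, and its highest array lay within the TSC22D4 range. In LCN13 animals 21, 22 and 23, which received no virus against it, the level was 6.81, 7.00 and 6.62. In TSC22D4+LCN13 animals 29, 30 and 32 it was 7.01, 6.72 and 6.71. Means were 6.59 ± 0.186 (SD, n = 3) in control, 6.81 ± 0.19 in LCN13, 6.82 ± 0.0683 in TSC22D4 and 6.81 ± 0.169 in TSC22D4+LCN13 arrays (SD, n = 3 each), so that the 3 groups with a target virus were level with one another and their ranges overlapped that of control.

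The difference of TSC22D4 from control arrays was 0.24 (SE 0.121, 95% interval -0.034 to 0.51, limma adjusted p = 0.619). At 95% confidence, the lower end of this interval allows the Tsc22d4 signal to be at most 2.35% lower than in control. The difference of TSC22D4+LCN13 from LCN13 arrays, which uses none of the same arrays, was 0.00098 (SE 0.121, 95% interval -0.27 to 0.27, limma adjusted p = 0.997), which allows at most 17.0% less. Averaged over both backgrounds, 6 arrays against 6, the difference was 0.12 (95% interval -0.073 to 0.31, limma adjusted p = 0.491), which allows at most 4.91% less. Differences from control of similar size appeared in the LCN13 group (0.22, SE 0.121, limma adjusted p = 0.512) and the TSC22D4+LCN13 group (0.23, SE 0.121, limma adjusted p = 0.337), and neither passed. The labels give neither the hairpin's target site nor the position of the probes in the transcript, and group names here and below are those on the labels.

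Because Tsc22d4 RNA was not measurably lower, these arrays do not test how the paralogues respond to its loss within muscle. What they show is whether a paralogue differed after the virus was given. No paralogue passed in any of the 6 comparisons made.

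Tsc22d3 (GILZ, Entrez gene 14605) had the widest range of the 4 family genes. It measured 9.67, 9.92 and 9.83 in control animals. It measured 9.43, 9.36 and 9.85 in TSC22D4 animals, of which 25 and 26 lay below every control array and 27 among them. LCN13 animals had 9.56, 9.59 and 9.82, and TSC22D4+LCN13 animals had 9.76, 10.08 and 9.52, the highest array of all among them. The difference was -0.26 for TSC22D4 against control (SE 0.161, 95% interval -0.63 to 0.096, limma adjusted p = 0.715), -0.16 for LCN13 against control (SE 0.161, limma adjusted p = 0.826) and -0.023 for TSC22D4+LCN13 against control (SE 0.161, limma adjusted p = 0.96). For TSC22D4+LCN13 against LCN13 the sign was opposite, 0.13 (SE 0.161, limma adjusted p = 0.709). The interaction, which is this difference less that of TSC22D4 against control, was 0.40 (95% interval -0.11 to 0.91, limma adjusted p = 0.641). All 4 groups overlapped in range.

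Tsc22d1 (Entrez gene 21807), the founding member and a TGF-beta-induced gene, was close to level across the groups. It measured 9.78, 9.91 and 9.91 in control animals, 9.72, 9.99 and 9.93 in TSC22D4 animals, 9.65, 9.88 and 9.80 in LCN13 animals and 9.72, 9.84 and 9.87 in TSC22D4+LCN13 animals. The largest of its differences from control was -0.086, in the LCN13 group (95% interval -0.27 to 0.094, limma adjusted p = 0.79). For TSC22D4 against control it was 0.020 (95% interval -0.16 to 0.20, limma adjusted p = 0.977), which allows a rise of at most 14.8%.

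The promoters of Tsc22d3 and Tsc22d1 are shown because both genes are known to be hormone- or cytokine-induced, and the levels of Tsc22d3 are set beside those of glucocorticoid targets below. RefSeq windows of 300 bases on GRCm38.p6, from 250 before to 50 after an annotated start, were at hand for 4 of the 7 genes: 3 for Tsc22d3, 5 for Tsc22d1 and 1 each for Nrbp1 and Wnk1. They were searched on both strands for the hexamer of the glucocorticoid receptor (AGAACA), its palindrome (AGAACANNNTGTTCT, which contains that hexamer on both strands), a FoxO site (GTAAACA), the core of the interferon-stimulated response element (GAAANNGAAA) and a SMAD box (GTCTAGAC). Of 32851 such windows of all genes 19.0% held the hexamer, 0.00913% the palindrome, 3.65% the FoxO site, 3.44% the interferon element and 0.213% the SMAD box. In the 10 windows of the members there were 2 matches, both to the hexamer. The window chrX:140600473-140600772 of Tsc22d3, a gene on the minus strand, held it as TGTTCT, its reverse complement, from position -185 relative to the start. The window chr14:76503976-76504275 of Tsc22d1, on the plus strand, held AGAACA from position -137. Both windows are printed 5′ to 3′ along the gene with the match in capitals. A match is a description of these letters, and the arrays do not show which start is used in muscle.
Tsc22d3: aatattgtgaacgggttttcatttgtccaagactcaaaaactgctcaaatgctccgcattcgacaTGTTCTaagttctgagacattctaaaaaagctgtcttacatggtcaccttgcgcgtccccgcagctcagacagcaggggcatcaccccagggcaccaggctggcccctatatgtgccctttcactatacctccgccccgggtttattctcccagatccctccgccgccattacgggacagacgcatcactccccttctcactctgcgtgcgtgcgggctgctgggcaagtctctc
Tsc22d1: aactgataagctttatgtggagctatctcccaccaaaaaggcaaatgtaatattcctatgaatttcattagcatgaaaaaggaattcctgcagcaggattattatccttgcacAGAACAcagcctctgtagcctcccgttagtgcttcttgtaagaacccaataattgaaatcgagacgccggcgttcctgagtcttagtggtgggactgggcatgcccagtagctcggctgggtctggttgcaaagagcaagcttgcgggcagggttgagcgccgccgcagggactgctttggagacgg

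Tsc22d2 (Entrez gene 72033), a family member reported to bind NRBP1, measured 8.25, 8.27 and 8.15 in control animals. It measured 8.15, 8.23 and 8.15 in TSC22D4 animals, 8.37, 8.21 and 8.10 in LCN13 animals and 8.10, 8.06 and 8.18 in TSC22D4+LCN13 animals, where the mean was lowest. The difference of TSC22D4+LCN13 from control was -0.11 (SE 0.0628, 95% interval -0.25 to 0.030, limma adjusted p = 0.367), with overlapping ranges. For TSC22D4 against control it was -0.046 (95% interval -0.19 to 0.094, limma adjusted p = 0.912), which allows a rise of at most 6.73%.

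The partners were lowest in the group given both target viruses, without passing the test over all genes. Nrbp1 (Entrez gene 192292), a pseudokinase adaptor, measured 11.30, 11.35 and 11.34 in control animals and 11.15, 11.30 and 11.10 in TSC22D4+LCN13 animals. Animals 29 and 32 lay below every other array, and animal 30 was level with the lowest control animal to 2 decimals. The difference was -0.15 (SE 0.05, 95% interval -0.26 to -0.037, limma adjusted p = 0.127), or 9.81% lower, which did not pass. Without animal 30 it was -0.21 and passed (SE 0.0375, limma adjusted p = 0.0212). The same array decided the comparison of TSC22D4+LCN13 with LCN13, at -0.097 with it (limma adjusted p = 0.308) and -0.16 without it (limma adjusted p = 0.0471). Animal 30 also had the highest adipocyte score of the 12 arrays (0.78, beside -0.22 in 29 and -0.09 in 32) and the highest macrophage score (0.68). The weight that limma estimates for each array was lowest for animal 30 (0.59), followed by 29 (0.61). Whether this bears on Nrbp1 was not tested. Nrbp1 measured 11.31, 11.26 and 11.24 in TSC22D4 animals and 11.23, 11.34 and 11.27 in LCN13 animals, with differences from control of -0.062 (limma adjusted p = 0.809) and -0.052 (limma adjusted p = 0.801).

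Nrbp2 (Entrez gene 223649), its dimmer paralogue, showed the same 2 animals apart. It measured 6.28, 6.85 and 6.40 in TSC22D4+LCN13 animals 29, 30 and 32. Control animals had 6.61, 6.82 and 6.88, TSC22D4 animals 6.49, 6.82 and 6.79, and LCN13 animals 6.72, 6.88 and 6.68. Animal 30 thus lay at the level of the other groups, and the difference of the group from control was -0.26 (SE 0.145, 95% interval -0.59 to 0.065, limma adjusted p = 0.36). Without animal 30 it was -0.43 and still did not pass (SE 0.115, limma adjusted p = 0.0776).

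Wnk1 (Entrez gene 232341), which sits at the top of the kinase cascade, was the 1 member of 7 whose TSC22D4+LCN13 arrays did not overlap those of control. It measured 11.79, 11.87 and 11.88 in TSC22D4+LCN13 animals and 11.91, 12.03 and 11.98 in control animals. The groups of 23.7% of all genes were apart in the same way in this comparison. The difference was -0.13 (SE 0.0515, 95% interval -0.24 to -0.0099, limma adjusted p = 0.206), which did not pass. Wnk1 measured 11.96, 11.92 and 11.87 in TSC22D4 animals and 12.05, 11.96 and 11.86 in LCN13 animals, with differences from control of -0.057 (limma adjusted p = 0.84) and -0.019 (limma adjusted p = 0.953).

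**Figure D2:**
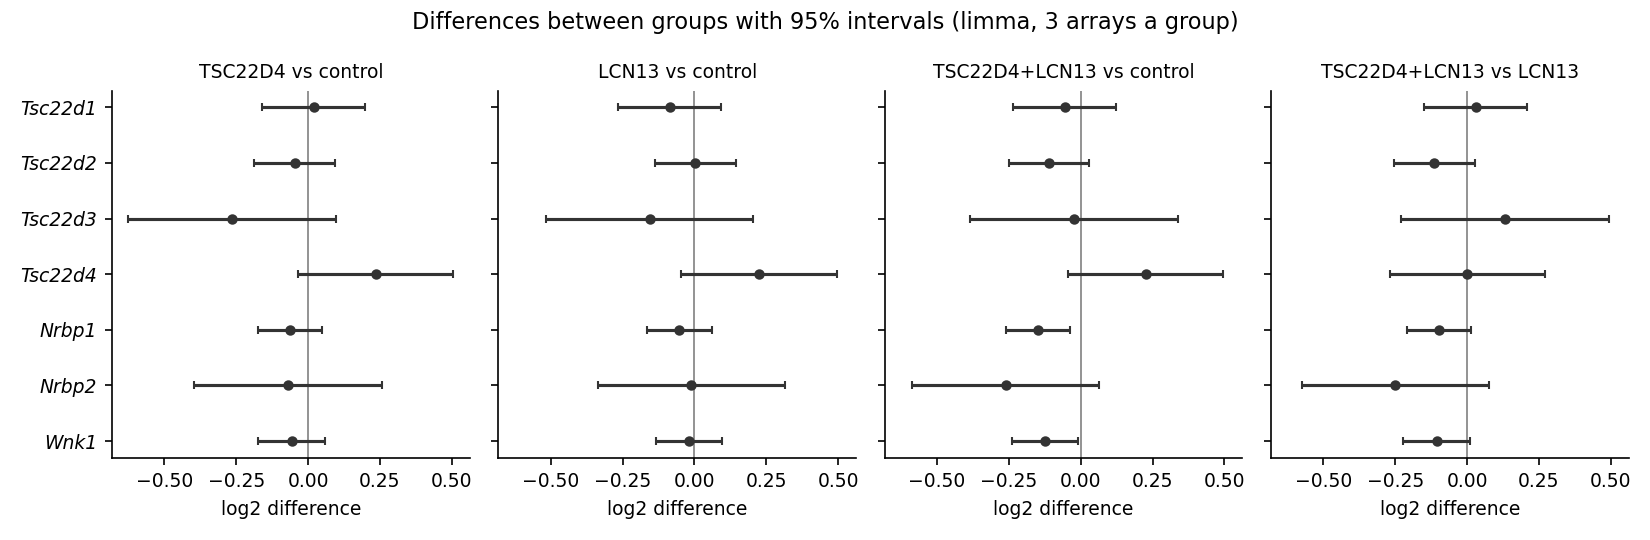
Log2 difference between groups (horizontal axis) with its 95% interval for the 7 members in 4 comparisons, 3 arrays against 3. Every interval holds 0 except those of Nrbp1 and Wnk1 for TSC22D4+LCN13 against control; no member passed an adjusted p of 0.05.

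Of the 7 members 0 passed an adjusted p below 0.05 in limma in each of the 6 comparisons. Over all genes the share that passed was 0.336% for TSC22D4 against control, 0.85% for LCN13 against control, 4.34% for TSC22D4+LCN13 against control, 4.21% for TSC22D4+LCN13 against LCN13, 0% for TSC22D4+LCN13 against TSC22D4 and 0.125% for the interaction. With shares this low, 0 of 7 does not set the members apart from other genes. At an unadjusted p below 0.05 the count was 2 of 7 for TSC22D4+LCN13 against control (Nrbp1 and Wnk1), beside 20.4% of all genes. It was 0 of 7 in the others of the 6 comparisons. Of all genes, 9.26% were below it for TSC22D4 against control, 12.4% for LCN13 against control and 20.9% for TSC22D4+LCN13 against LCN13. For TSC22D4+LCN13 against TSC22D4 10.5% were, and for the interaction 9.57%. For TSC22D4 virus averaged over both backgrounds, which includes the TSC22D4+LCN13 arrays, Nrbp1 was -0.080 (limma unadjusted p = 0.0486, adjusted p = 0.237). Wnk1 was -0.082 in that average (limma unadjusted p = 0.0494, adjusted p = 0.239). Neither passed, and the intervals of the other 5 members held 0. Apart from Wnk1, 0 members had groups that did not overlap, beside 16.9% of all genes for TSC22D4 against control, 18.8% for LCN13 against control, 22.6% for TSC22D4+LCN13 against LCN13 and 14.6% for TSC22D4+LCN13 against TSC22D4.

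The members' median log2 difference was -0.11 for TSC22D4+LCN13 against control, with 6 of 7 below 0, against a median of -0.0050 over all genes. It was -0.057 for TSC22D4 against control, with 5 of 7 below 0 and a median of -0.0019 over all genes. It was -0.019 for LCN13 against control, also with 5 of 7 below 0. These 3 comparisons share the control arrays. The medians over all genes include genes dimmer than any member, so the 2 sets are unlike in level. The share of all genes below 0 was not counted. The intervals bound what may have been missed: for TSC22D4 against control the lowest end of the 7, that of Tsc22d3, allows at most 35.2% less and the highest end, that of Tsc22d4, at most 42.0% more.

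The other genes of the pathway were counted on 4 lists. Over all genes 0.336%, 0.85% and 4.34% passed for TSC22D4, LCN13 and TSC22D4+LCN13 against control. For TSC22D4+LCN13 against LCN13, against TSC22D4 and for the interaction, 4.21%, 0% and 0.125% did. Of 18 measured genes of the WNK pathway, 0 passed for TSC22D4 against control (median -0.028), 1 fell for LCN13 against control (median -0.039) and 0 passed for TSC22D4+LCN13 against control (median -0.035), against medians of -0.0019, 0.0014 and -0.0050 over all genes. By limma 2, 3 and 6 of the 18 had an unadjusted p below 0.05, beside 9.26%, 12.4% and 20.4% of all genes. In the other 3 comparisons (TSC22D4+LCN13 against LCN13, against TSC22D4 and the interaction) 0 passed, with 3, 1 and 2 at an unadjusted p below 0.05, beside 20.9%, 10.5% and 9.57% of all genes. The 1 that fell was Wnk2, a paralogue of Wnk1, by 0.49 on the log2 scale (SE 0.0855, limma adjusted p = 0.0358). It measured 9.86, 10.13 and 9.87 in LCN13 animals and 10.39, 10.40 and 10.53 in control animals. The groups did not overlap, as was so for 18.8% of all genes in this comparison. The call did not hold in 7 of 12 fits with a single array removed (without animal 18, 19, 20, 21, 23, 26 or 27, with limma adjusted p up to 0.151). Nor did it hold with the compared arrays alone (limma adjusted p = 0.111) or for LCN13 virus averaged over both backgrounds, where Wnk2 was -0.31 (limma adjusted p = 0.0553). Slc12a2, which encodes the cotransporter NKCC1 downstream of WNK kinases, was -0.22 in TSC22D4+LCN13 against control arrays and did not pass (SE 0.0553, limma adjusted p = 0.0541). It measured 10.23, 10.10 and 10.12 there and 10.45, 10.33 and 10.34 in control animals. In the TSC22D4 group Slc12a2 was -0.14 (limma adjusted p = 0.486) and the kinase Sgk1, which acts upstream of WNK signalling, was -0.25 (limma adjusted p = 0.533). Wnk4, near the bottom of the scale, was -0.076 in TSC22D4+LCN13 against control arrays (limma adjusted p = 0.154).

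Among 14 measured genes for proteins reported to bind members of the group, 0 passed for TSC22D4 against control, 1 fell for LCN13 against control and 1 fell for TSC22D4+LCN13 against control, with medians of -0.059, -0.019 and -0.043. By limma 3, 2 and 5 of the 14 had an unadjusted p below 0.05, beside 9.26%, 12.4% and 20.4% of all genes. In the other 3 comparisons 0 passed, with 3, 1 and 1 at an unadjusted p below 0.05, beside 20.9%, 10.5% and 9.57% of all genes. The same gene, Cul4a, fell for LCN13 and for TSC22D4+LCN13 against control. Cul4a encodes a cullin scaffold of ubiquitin ligases. It measured 8.88, 8.97 and 8.97 in control animals, 8.62, 8.64 and 8.69 in LCN13 animals, 8.72, 8.79 and 8.66 in TSC22D4 animals and 8.74, 8.57 and 8.61 in TSC22D4+LCN13 animals. The control arrays lay above the other 9 arrays. The share of all genes apart in this way from all 9 was not counted. Taken singly, the TSC22D4, LCN13 and TSC22D4+LCN13 groups did not overlap control in 16.9%, 18.8% and 23.7% of all genes. It fell by 0.29 for LCN13 (SE 0.049, limma adjusted p = 0.0313) and by 0.30 for TSC22D4+LCN13 (SE 0.049, limma adjusted p = 0.0116), and was -0.22 for TSC22D4, which did not pass (SE 0.049, limma adjusted p = 0.135). Leaving out animal 20 ended the call for TSC22D4+LCN13 (limma adjusted p = 0.0526), and leaving out animal 19, 20, 21, 22, 23 or 25 ended that for LCN13 (limma adjusted p up to 0.136). With the compared arrays alone neither held (limma adjusted p = 0.0753 and 0.0727). The call for LCN13 also ended with trend and robust eBayes (limma adjusted p = 0.111) and averaged over both backgrounds, where Cul4a was -0.19 (limma adjusted p = 0.0513). Eloc, the elongin C subunit of cullin ligases, was -0.25 for TSC22D4 against control and did not pass (limma adjusted p = 0.426).

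Of 23 measured genes of the TGF-beta pathway, for which the family is named, 0 passed in any of the 6 comparisons by limma, with 2, 4 and 4 at an unadjusted p below 0.05 for TSC22D4, LCN13 and TSC22D4+LCN13 against control and 5, 1 and 0 for TSC22D4+LCN13 against LCN13, against TSC22D4 and the interaction. Their medians against control were -0.041, 0.046 and -0.032. In the same order of the 6 comparisons, 9.26%, 12.4%, 20.4%, 20.9%, 10.5% and 9.57% of all genes had an unadjusted p below 0.05. Tgfb3, a TGF-beta ligand, was 0.11 for TSC22D4 and 0.13 for TSC22D4+LCN13 (limma adjusted p = 0.361 and 0.074). Inhba, a subunit of activin, was 0.14 and 0.18 (limma adjusted p = 0.481 and 0.0946).

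**Figure D3:**
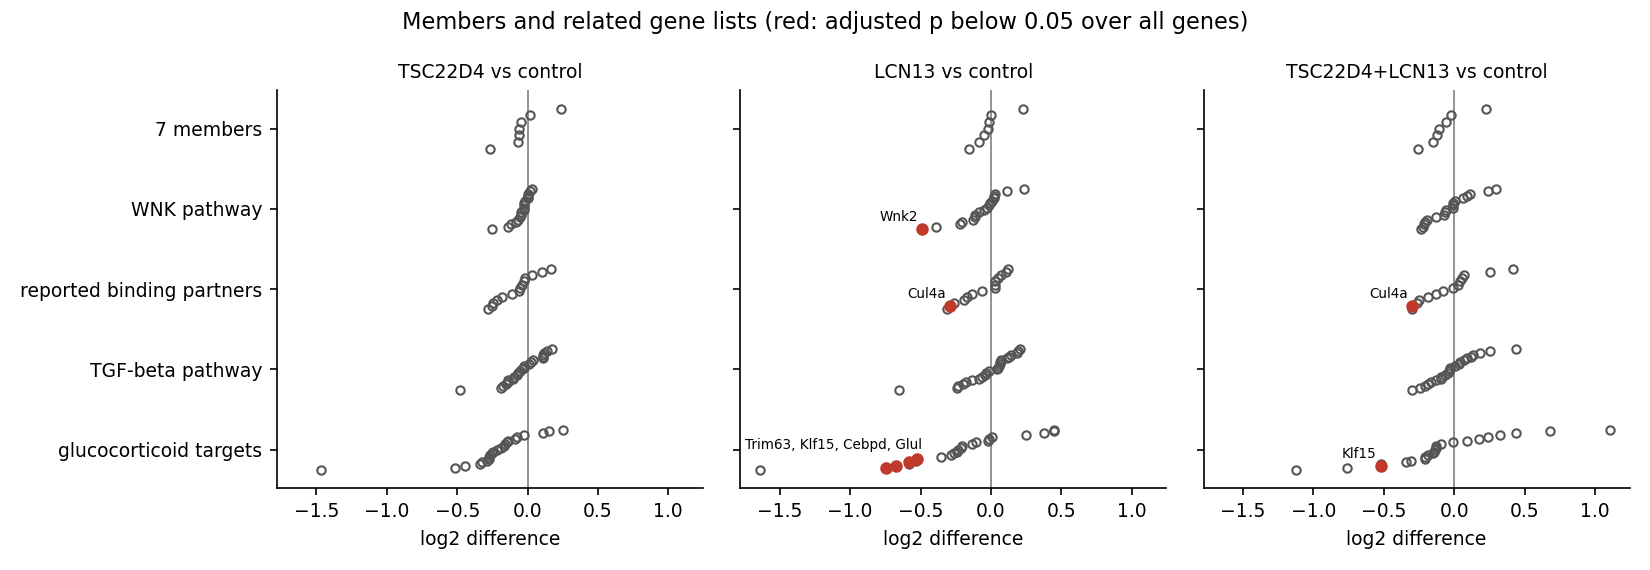
Log2 difference from control (horizontal axis) of the 7 members and of each measured gene of 4 lists, in 3 comparisons that share the control arrays. Filled red points passed an adjusted p of 0.05 over all genes and are named; no member is among them, and the points that passed outside the glucocorticoid targets are Wnk2 and Cul4a.

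Glucocorticoid targets were listed because Tsc22d3 is one of them, and the list also holds Nr3c1, the gene of the glucocorticoid receptor. Of 23 other measured targets, 0 passed for TSC22D4 against control (median -0.21), 4 fell for LCN13 against control (median -0.23) and 1 fell for TSC22D4+LCN13 against control (median -0.14). For TSC22D4+LCN13 against LCN13 1 rose (median 0.16), and 0 passed against TSC22D4 and for the interaction, with 3, 3 and 6 at an unadjusted p below 0.05 in limma, beside 20.9%, 10.5% and 9.57% of all genes. The transcription factor Klf15 fell by 0.68 for LCN13 (SE 0.104, limma adjusted p = 0.022) and by 0.52 for TSC22D4+LCN13 (SE 0.104, limma adjusted p = 0.0272). In LCN13 arrays the ubiquitin ligase gene Trim63 fell by 0.75, the transcription factor Cebpd by 0.58 and the glutamine synthetase gene Glul by 0.52 (limma adjusted p = 0.0251, 0.0276 and 0.0484). By limma 7, 10 and 9 of the 23 had an unadjusted p below 0.05 in the 3 comparisons with control, beside 9.26%, 12.4% and 20.4% of all genes. The lowest difference for TSC22D4 against control was that of Ddit4, which encodes an inhibitor of mTORC1, at -1.47 (SE 0.351, limma adjusted p = 0.16). Its means were 8.24 in control, 6.59 in LCN13, 6.77 in TSC22D4 and 7.11 in TSC22D4+LCN13 arrays, and it passed in none of the comparisons. The call for Klf15 in LCN13 arrays did not hold without animal 18, 19 or 20, and in TSC22D4+LCN13 arrays without 18, 19, 20, 30 or 32. That for Trim63 did not hold without 18, 20, 21 or 23, that for Cebpd without 21, 22, 23, 26 or 27, and that for Glul in 10 of 12 such fits, holding only without 30 or 32. With the compared arrays alone none of these 5 calls held (limma adjusted p = 0.0538 for Klf15 in TSC22D4+LCN13 arrays and 0.0679 to 0.135 in LCN13 arrays). Averaged over both backgrounds, LCN13 virus gave -0.35 for Trim63, -0.22 for Cebpd and -0.23 for Glul, none of which passed (limma adjusted p = 0.105, 0.178 and 0.179). Trim63 was the gene that rose for TSC22D4+LCN13 against LCN13, by 0.62 (SE 0.12, limma adjusted p = 0.0261), a comparison that shares the LCN13 arrays with the fall above. That call did not hold without animal 21, 29 or 32, with array weights (limma adjusted p = 0.0511) or with the compared arrays alone (limma adjusted p = 0.0898). Tsc22d3 itself was -0.16 for LCN13 against control and did not pass.

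Across the 12 arrays Tsc22d3 varied in the same direction as most of these targets. Its correlation was positive with 20 of 23, among them Nr3c1, the gene of the receptor itself (r = 0.46), with a median r of 0.44. Over the 11611 genes above the array median, it was positive with 45.4% and the median r was -0.044. The highest was with Errfi1, an inhibitor of the EGF receptor, at r = 0.77 (Spearman's rho 0.80, permutation p = 0.00377 and 0.00286, adjusted p = 0.0654 and 0.079 over 44 relations), and at 0.84 without animals 26 and 30. Dusp1, a phosphatase of MAP kinases, followed at r = 0.72 (rho 0.73, permutation p = 0.00743 and 0.00835, adjusted p = 0.0654 and 0.079) and Mt1, a metallothionein, at r = 0.72 (rho 0.59, permutation p = 0.0058 and 0.0486, adjusted p = 0.0654 and 0.169). Without animals 26 and 30, r was 0.74 for Dusp1 and 0.49 for Mt1, so the latter rests in part on those arrays. Foxo1, a transcription factor gene, had r = 0.69 (rho 0.65, permutation p = 0.0141 and 0.0248, adjusted p = 0.103 and 0.169) and 0.51 without those animals. The clock gene Per1 had r = 0.66 (rho 0.75, permutation p = 0.0193 and 0.00721, adjusted p = 0.122 and 0.079) and 0.77 without those animals. Ddit4, an inhibitor of mTORC1, had r = 0.65 (rho 0.73, permutation p = 0.0244 and 0.00898, adjusted p = 0.134 and 0.079) and 0.80 without them. In deviations from the group means r was 0.73 for Errfi1, 0.68 for Dusp1, 0.85 for Mt1, 0.64 for Foxo1, 0.79 for Per1 and 0.73 for Ddit4. The targets with a negative r were Pdk4 (-0.31), Fbxo32 (-0.26) and Mstn (-0.20), with -0.54, -0.58 and -0.46 in those deviations. Trim63, Angptl4 and Cebpd had a positive r over the arrays (0.14, 0.079 and 0.32) but a negative r in those deviations (-0.12, -0.068 and -0.056). Fewer targets were thus positive once the group means were removed. Angptl4 had r = -0.58 without animals 26 and 30. Of the 44 relations 10 had an unadjusted p below 0.05 and 0 passed after adjustment, for r or for rho.

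Among the members themselves 21 pairs were compared, and 2 had an unadjusted permutation p below 0.05. Tsc22d2 and Wnk1 had r = 0.77 (rho 0.76, permutation p = 0.00317 and 0.00616, adjusted p = 0.0654 and 0.079 over the 44 relations), with r = 0.53 without animals 19 and 21 and 0.65 in deviations from the group means. Nrbp1 and Nrbp2 had r = 0.74 (rho 0.64, permutation p = 0.00711 and 0.0303, adjusted p = 0.0654 and 0.169). Without animals 29 and 32, the 2 in which both were low, r was 0.25, so this relation rests largely on those arrays. Over all 12 arrays it was 0.63 in deviations from the group means. The 2 left out lie farthest from the median of Nrbp1, and leaving out such arrays can itself lower r. The other 19 pairs did not reach an unadjusted p of 0.05.

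**Figure D4:**
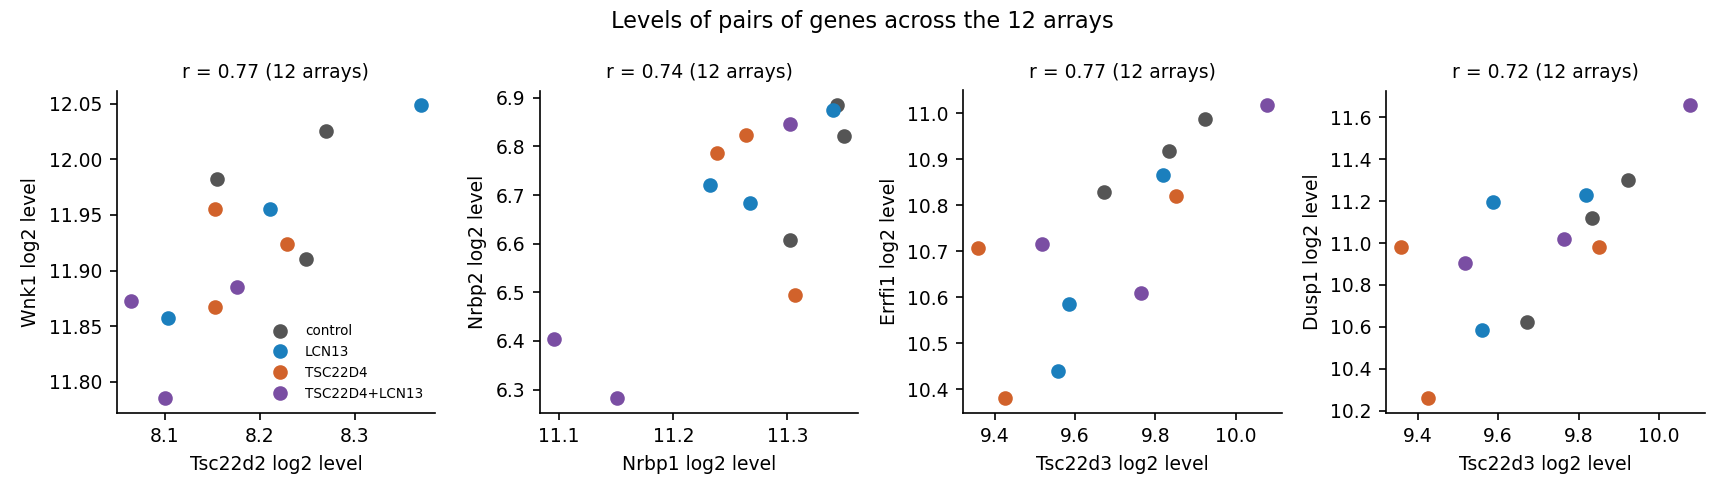
Log2 levels of 4 pairs of genes across the 12 arrays, coloured by shRNA group, with Pearson's r. TSC22D4+LCN13 animals 29 and 32 lie at the lower left of the Nrbp1 and Nrbp2 panel, and r there falls from 0.74 to 0.25 without them.

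The genes most like each member over the 12 arrays were ranked by Pearson's r among 11103 named genes above the array median, as a description. Tsc22d4 was most like Eme2 (r = 0.94), Ing4 (0.88) and Ascc2 (0.86). Tsc22d3 was most like Snx33 (0.93), Tcim (0.87) and Sf3b1 (0.87), Tsc22d2 like Kpna6 (0.93), Emc6 (0.93) and Rflna (0.92), and Tsc22d1 like Wdr6 (0.87), Rab40c (0.87) and Gucy1a1 (0.83). Nrbp1 was most like Birc6 (0.92), Dnajc17 (0.91) and Exoc3l2 (0.90), Nrbp2 like Cadm4 (0.89), Dock6 (0.86) and Atrnl1 (0.86), and Wnk1 like Aff4 (0.91), Fbrsl1 (0.90) and Fbxl17 (0.89). In deviations from the group means Wdr6 and Dnajc17 were still among the 3 nearest to their member and the other 19 of these genes were not.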

How the data were processed

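RNA of 12 gastrocnemius samples was hybridised singly, in 1 colour, to Affymetrix arrays, per the labels' protocols. The authors deposited log2 values from RMA, per the submitters' processing notes. Its version, the probe set definitions and the build of the annotation were not stated in labels or headers. RMA equalises the distributions, so a shift common to most transcripts would not be seen. Of 25206 probe sets, 23185 had 1 gene symbol in the platform annotation and were tested, and 2021 entered an alternative only. Groups came from the titles. The 12 animals bear different numbers, so no samples pair, and neither labels nor headers give a batch. No 2 arrays held identical values, and arrays correlated at 0.990 to 0.998.

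Limma 3.58.1 (lmFit, eBayes; R 4.3.3) was run over 12 arrays with 4 group means, with 8 residual and 1.69 prior degrees of freedom. Tests were two-sided, with Benjamini-Hochberg adjustment over all genes within each of the 6 comparisons and a threshold of 0.05. Correlations across arrays used two-sided permutation tests (100000 permutations). The scripts were tested on simulated data. The members, the lists and the rule for named genes (all members, the genes of a list that passed or had its smallest p, and the 3 most alike genes a member, predicted genes left out) were chosen with earlier results of these data known, and of the genes the rule gives some are not named in the text. Protein sequences were not used here. The number of arrays limits the precision.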

Additional observations from a re-analysis of the deposited data

How the results depend on the processing

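The fits were repeated under 20 alternatives, of which 12 left out 1 array each. Of 805 repeated differences of a member 2 passed, both of Nrbp1 without TSC22D4+LCN13 animal 30: without each array in turn, the count of members that passed ranged from 0 to 1 for TSC22D4+LCN13 against control and against LCN13, and was 0 under every alternative run in the other 4 comparisons. The cause was not tested. A further 37 differences changed sign, none of them past the threshold and none from a main value over 0.16 in size. With array weights, Tsc22d2 for LCN13 against control was -0.014, Tsc22d4 for TSC22D4+LCN13 against LCN13 was -0.00038 and the interaction of Tsc22d1 was -0.0020. Quantile normalization again and centring gave -0.0042 and -0.0020 for that Tsc22d4 difference. Averaged over both backgrounds, LCN13 virus gave -0.030 for Tsc22d2 and 0.043 for Tsc22d3. Without each array in turn, the difference for TSC22D4 against control ranged from -0.035 to 0.099 for Tsc22d1 and from -0.15 to 0.034 for Nrbp2. For LCN13 against control it ranged from -0.067 to 0.066 for Tsc22d2, from -0.093 to 0.046 for Nrbp2 and from -0.067 to 0.029 for Wnk1, and for TSC22D4+LCN13 against control from -0.17 to 0.11 for Tsc22d3. For TSC22D4+LCN13 against LCN13 it ranged from -0.032 to 0.083 for Tsc22d1, from -0.014 to 0.27 for Tsc22d3 and from -0.097 to 0.097 for Tsc22d4, and against TSC22D4 from -0.11 to 0.042 for Tsc22d4. The interaction ranged from -0.069 to 0.066 for Tsc22d1, from -0.13 to 0.0025 for Tsc22d2 and from -0.094 to 0.0091 for Nrbp1. Genes that passed numbered 78, 197, 1007 and 977 for TSC22D4, LCN13 and TSC22D4+LCN13 against control and for TSC22D4+LCN13 against LCN13, and 33, 18, 124 and 0 with the compared arrays alone. Array weights gave 177, 340 and 543 for the first, second and last of these, and the average over both backgrounds gave 1022 for TSC22D4 virus. The lowest counts without 1 array were 36 (animal 25), 77 (animal 20), 334 (animal 20) and 318 (animal 21). For the interaction, 29 passed, 51 among genes above the median level and 3 to 50 without 1 array, and for TSC22D4+LCN13 against TSC22D4, 0 passed, with up to 2 without 1 array. No paired analysis was possible because the animals of different groups share no number. With 3 arrays a group, the intervals of Tsc22d3, Tsc22d4 and Nrbp2 are wide.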
